A study of Mus musculus with 768 samples.

Results

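The 50 mitosis and G2/M genes described here are those that a dividing cell uses to enter mitosis, attach and separate its chromosomes, and cleave into daughter cells. They were taken by symbol from a fixed list and were found in both deposited tables, among 24490 endogenous genes. The data are Smart-seq2 profiles (full-length cDNA sequencing of single sorted cells) of cells that the labels call cancer-associated fibroblasts. All cells came from mammary tumors of 14-week-old FVB/N-Tg(MMTVPyVT)634Mul/J mice and had been sorted as alive and EpCAM-, CD45-, CD31- and NG2-. This strain carries the polyoma virus middle T antigen under the MMTV promoter, which is active mainly in mammary epithelium. No treatment or genotype was compared, so every well belongs to 1 group. The titles place 384 wells on each of 2 plates. Per the study's methods each plate held the cells of 1 tumor. Tumor and plate cannot be told apart, and the tumor is the replicate (n = 2). Of 768 wells, 727 had at least 10000 endogenous reads and were used, 373 of tumor 1 and 354 of tumor 2.

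Transcription of these genes is low in resting cells and in G1, starts to rise as DNA is copied, and peaks in G2 and mitosis. The rise is known to run through the MuvB complex, which binds short promoter elements called cell cycle genes homology regions (CHR) and works with B-MYB and FOXM1, and through the factor NF-Y, which binds CCAAT boxes. CDK1 with its cyclins A and B drives entry into mitosis. The kinases PLK1 and AURKA build the spindle, and the chromosomal passenger complex of AURKB, survivin (*Birc5*) and borealin (*Cdca8*) corrects faulty attachments. The spindle checkpoint proteins MAD2, BUB1, BUBR1 (*Bub1b*) and MPS1 (*Ttk*) hold back the anaphase-promoting complex until every chromosome is attached, and CDC20 and UBE2C then let it mark cyclin B for destruction. In tumor stroma, such genes mark the minority of cells that are in cycle.

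The wells of tumor 1 had 10281 to 838772 endogenous reads, with a median of 219264, and those of tumor 2 had 10476 to 1190516, with a median of 198180. Reads of *Epcam*, *Pecam1* or *Ptprc*, genes of 3 of the proteins gated out, were found in 57 wells, 3 of which were rich in mitosis genes as defined below. *Ptprc* was at 0 in all rich wells. Of 10 epithelial markers 6 were at 0 in the rich wells of tumor 1 and 2 in those of tumor 2, and their mean log2(RPKM + 1), here and below the level of a list, ran from 0 to 0.96 and from 0 to 6.21, against 0 to 4.88 and 0 to 2.52 in wells poor in these genes. The 6.21 and the 4.88 were both of wells of the developmental class defined below. Rich vascular and matrix wells of tumor 2 reached 1.99 and 0.20. The 8 endothelial markers reached 1.24 and 1.49 in rich wells, with 4 at 0 in each tumor, and 1.51 and 1.91 in poor wells. *Emcn*, the most often read of them, was present in 38.5% and 60.9% of rich and 25.7% and 35.1% of poor wells, and in tumor 2 the median level of the list was 0.81 in rich wells and 0 in poor ones. The part of this in the results was not tested. Shares of wells are given with exact binomial 95% confidence intervals, which cover counting error only, since the wells of a tumor are not replicates. Smart-seq2 reads carry no molecular identifiers. The mean ± SD over the 2 tumors is the replicate spread, and a comparison of classes of wells within these tumors carries no p-value.

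The promoters of these genes are shown because CCAAT boxes and CHR letters are known to serve the joint regulation of G2/M genes. RefSeq (GRCm38.p6) gives a window for 40 of the 50 genes, and the 250 bases before the annotated start were searched on both strands. The CCAAT box was searched as CCAAT, and the CHR as TTTGAA and TTCGAA, and matches of the 2 kinds can share at most 1 end letter. The start is that of the first transcript listed for a gene, and for *Aurka*, *Sgol1*, *Kif2c*, *Aspm* and *Cdca3* it lies well inside the full span of the gene. The last 100 bases before this start of 6 members chosen by name follow, written 5′ to 3′ on the strand of the gene, with CCAAT and CHR letters of either strand in capitals.
Ccnb1: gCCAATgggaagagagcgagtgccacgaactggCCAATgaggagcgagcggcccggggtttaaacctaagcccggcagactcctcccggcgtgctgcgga
Ccnb2: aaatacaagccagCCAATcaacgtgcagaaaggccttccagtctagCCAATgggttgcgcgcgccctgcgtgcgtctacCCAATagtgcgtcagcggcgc
Cdc20: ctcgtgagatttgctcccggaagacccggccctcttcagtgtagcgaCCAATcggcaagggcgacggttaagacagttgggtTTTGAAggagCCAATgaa
Plk1: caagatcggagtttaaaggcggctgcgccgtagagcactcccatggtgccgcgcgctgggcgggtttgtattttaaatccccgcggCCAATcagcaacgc
Aurka: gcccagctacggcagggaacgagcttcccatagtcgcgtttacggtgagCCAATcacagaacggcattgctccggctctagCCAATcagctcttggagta
Birc5: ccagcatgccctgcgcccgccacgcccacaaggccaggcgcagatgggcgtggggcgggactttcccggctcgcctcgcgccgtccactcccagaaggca
These stretches lie at chr13:100786487-100786586 (minus strand) for *Ccnb1*, chr9:70421555-70421654 (minus) for *Ccnb2* and chr4:118437344-118437443 (minus) for *Cdc20*. They lie at chr7:122159335-122159434 (plus) for *Plk1*, chr2:172370571-172370670 (minus) for *Aurka* and chr11:117849137-117849236 (plus) for *Birc5*. The *Aurka* stretch lies within the RefSeq span of the gene, which reaches to base 172370886. *Ccnb2* held 3 CCAAT boxes in these 100 bases, *Ccnb1*, *Cdc20* and *Aurka* held 2 each, *Plk1* held 1 and *Birc5* none. The letters of the CHR were found once, in *Cdc20*.

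Over the 40 members with a window, 29 (72.5%) held a CCAAT box in the 250 bases, against 34.5% of 27025 genes with a window of the same length. Of the members, 22 (55%) held at least 2 boxes, against 10.5% of all genes. CHR letters were present in 13 members (32.5%) and in 17.4% of all genes, and within the last 100 bases in 10 members (25%) and 6.29% of all genes. A match of letters is a description and not a bound site. *Cdk1*, *Cks1b*, *Top2a* and *Ube2c* were among the members with both motifs in the 250 bases.

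All 50 genes had reads in both tumors, but most were rare. The share of wells with at least 1 read, over both tumors, ran from 4.81% for *Ska1*, a component of the outer kinetochore, to 32.05% for *Cdk1*, the kinase at the centre of mitotic entry. Of the 50 genes, 16 were read in over 10% of wells and 34 in 10% or less, with a median of 7.50% over the members. The intervals of the tumors overlapped for all 50 genes, and 18 genes had the higher share in tumor 1.

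**Figure D1:**
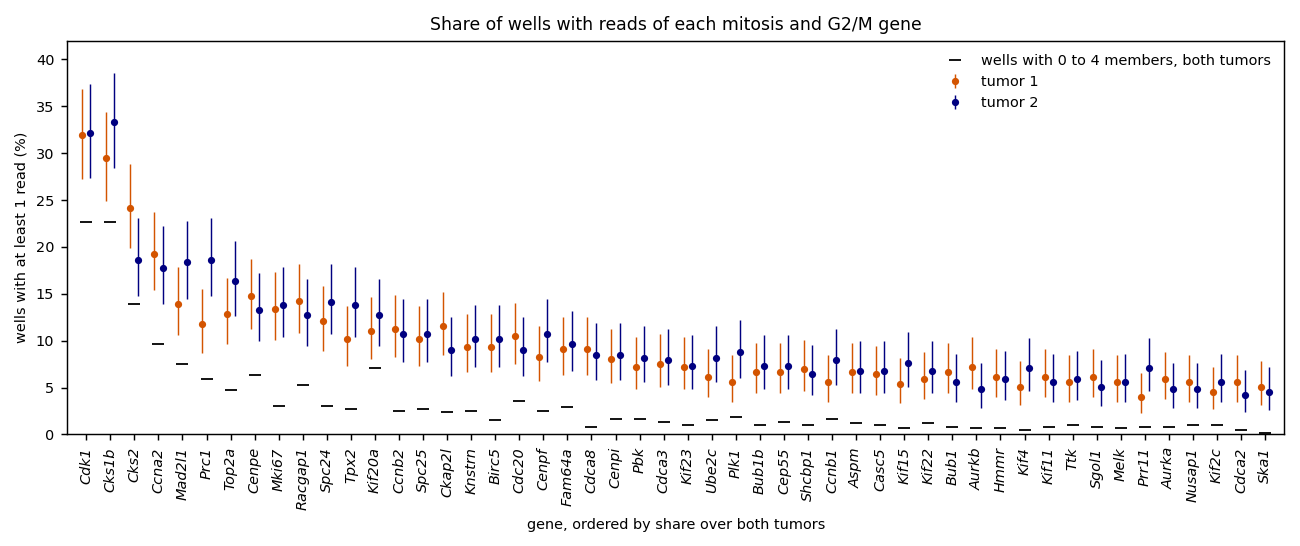
Share of wells with at least 1 read of each of the 50 genes (y axis, percent; x axis, genes in falling order), with exact 95% binomial intervals for each tumor and, as black ticks, the share among wells that held at most 4 of the 50 genes. *Cdk1* and *Cks1b* lead in both tumors, *Cks2* follows in tumor 1 and is level with *Prc1* in tumor 2, and the first 3 keep shares of 13.9 to 22.6% among the poor wells, where *Ska1* falls to 0.17%.

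The cyclins, CDK1 and its small CKS subunits were the most widely read group, with shares of 6.74 to 32.05%. *Cdk1* was read in 31.9% of the wells of tumor 1 (27.2 to 36.9%) and 32.2% of tumor 2 (27.4 to 37.3%). *Cks1b*, which also serves the SCF-SKP2 ubiquitin ligase, was read in 29.5% (24.9 to 34.4%) and 33.3% (28.4 to 38.5%). *Cks2* followed with 24.1% and 18.6%, and cyclin A2 (*Ccna2*), which acts in S phase and G2, with 19.3% and 17.8%. Cyclins B1 and B2 were rarer, *Ccnb2* with 11.3% and 10.7% and *Ccnb1* with 5.63% and 7.91%. The order within this group thus placed the mitotic cyclins below the subunits that also act outside mitosis.

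Among the mitotic kinases *Plk1*, *Aurka*, *Melk* and *Pbk* the shares were 5.36 to 7.70%. The chromosomal passenger genes ran from 6.05% for *Aurkb* to 9.77% for *Birc5*. In the spindle checkpoint *Mad2l1* stood apart with 16.1%, while *Bub1*, *Bub1b* and *Ttk* lay at 5.78 to 7.02%. The 9 kinetochore and centromere genes ran from 4.81 to 14.0%, with *Cenpe*, a kinesin that moves chromosomes to the spindle equator, highest, followed by *Spc24* and *Spc25* of the NDC80 complex, *Knstrn*, *Cenpf*, *Cenpi*, *Casc5*, *Sgol1*, the protector of centromeric cohesion, and *Ska1*. The 7 mitotic kinesins ran from 5.09% for *Kif2c*, a microtubule depolymerase, to 11.8% for *Kif20a*, which acts in the late spindle. *Kif23* of the centralspindlin complex, *Kif11*, which pushes the spindle poles apart, and *Kif4*, *Kif15* and *Kif22* lay between them. The spindle assembly genes ran from 5.23% for *Nusap1* to 15.1% for *Prc1*, a bundler of midzone microtubules, with *Tpx2*, *Ckap2l*, *Aspm* and *Hmmr* between. *Racgap1*, the partner of *Kif23*, was read in 13.5% of wells and *Cep55* and *Shcbp1*, which also act in cytokinesis, less often. *Cdc20* was read in 9.77% and *Ube2c* in 7.15%. *Top2a*, which untangles sister chromatids, and *Mki67*, which coats mitotic chromosomes, were read in 14.6% and 13.6%, and *Cdca2* in 4.95%. *Fam64a*, *Prr11* and *Cdca3* ran from 5.50 to 9.35%.

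Counted together, the genes split the wells sharply. A well held a median of 2 of the 50 genes in each tumor, 125 wells held none and 463 held 1 to 4. At the other end 49 wells held 20 or more, 41 of these at least 30 and 27 at least 40. Between lay 69 wells with 5 to 9 genes, 16 with 10 to 14 and 5 with 15 to 19. Wells with at least 20 genes are called member-rich, wells with at most 4 member-poor. The cut falls in a thin range, since only 7 wells held 15 to 24 genes.

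Member-rich wells made up 26 of 373 in tumor 1 (6.97%, 4.604 to 10.0%) and 23 of 354 in tumor 2 (6.497%, 4.16 to 9.59%), which gives 6.73% ± 0.33 as their mean ± SD (n = 2). They held 22 to 50 members with a median of 40.5 in the first tumor, and 24 to 50 with a median of 41 in the other. At this limit the intervals of the tumors overlapped. With a limit of 10 members the shares were 7.77% and 11.6%, with 13 of the 16 wells of 10 to 14 members and 5 of the 5 wells of 15 to 19 coming from tumor 2. When each well was thinned to 50000 endogenous reads, which left out 47 of the 727 wells, the shares were 6.78% and 6.75%. Of 47 rich wells deep enough for thinning, 46 stayed above the cut and no other well crossed it. Without the 57 wells with reads of *Epcam*, *Pecam1* or *Ptprc*, an alternative chosen after seeing the data, the mean share was 6.84%.

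**Figure D2:**
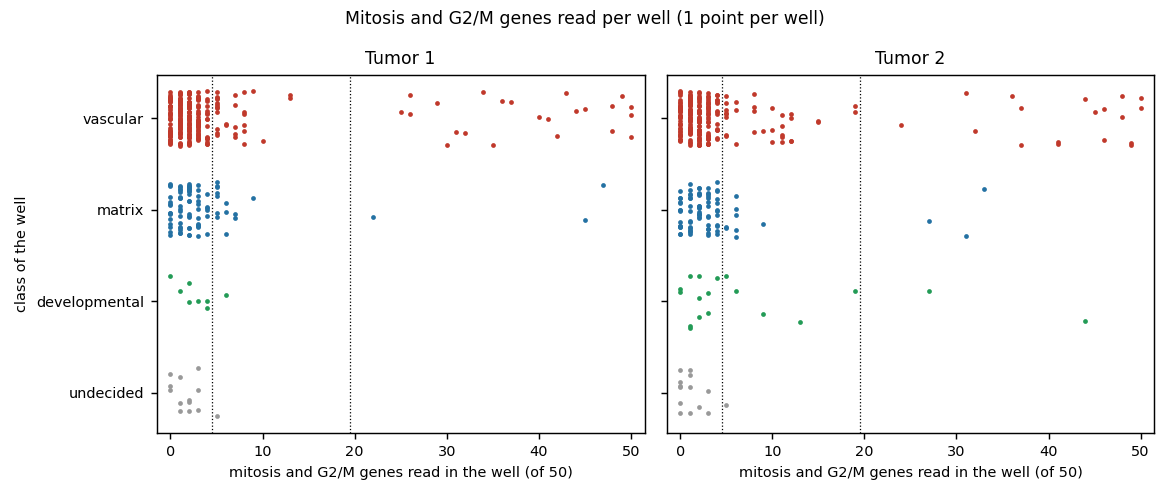
Number of the 50 genes read in each well (x axis), 1 point per well, by tumor and by the marker class of the well (y axis; spread within a row is random). Dotted lines mark the limits of member-poor (up to 4) and member-rich wells (from 20). Most wells sit at 0 to 4 genes and few lie between 10 and 24.

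The genes differed in the share of their wells that also held much of the program. For each gene, the wells that held it were asked whether they also held at least 20 of the other 49. For *Ska1* this was so in 91.4% of its wells, for *Hmmr*, a spindle microtubule protein, in 88.6%, for *Aspm*, which acts at spindle poles, in 83.7%, and for *Cdca2* in 83.3%. *Kif15*, *Sgol1* and *Melk* followed at 80.5 to 80.9%. At the other end stood *Cdk1* with 19.7%, *Cks1b* with 20.6%, *Cks2* with 26.9% and *Ccna2* with 34.8%. In all, 37 genes had at least 50% of their wells in that state and 13 did not.

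The 13 genes of the second kind were *Cdk1*, *Cks1b*, *Cks2*, *Ccna2*, *Mad2l1*, *Prc1*, *Top2a*, *Kif20a*, *Cenpe*, *Spc24*, *Cdc20*, *Racgap1* and *Mki67*. Most of them were read often in the intermediate wells of 5 to 19 genes, where *Cdk1* was present in 60.0%, *Cks1b* in 53.3% and *Top2a* in 36.7%. *Kif20a* was different, with reads in 7.14% of the member-poor wells and 7.78% of the intermediate ones. Its wells outside the program held a median of 2 reads in the poor group, against 39 in rich wells. *Cdc20*, the activator of the anaphase-promoting complex, was read in 3.57% of poor wells with a median of 12 reads, and *Mad2l1* in 7.48% with a median of 25. Those single-gene signals were thus not all at the level of 1 read.

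*Mki67* was read in 49 of 49 rich wells, the highest share of any member there. *Ccna2*, *Cks1b*, *Birc5* and *Racgap1* were each read in 95.9%. The lowest share in rich wells was 57.1%, for *Aurka*, *Kif2c* and *Nusap1*. Among poor wells 30 of the 50 genes were read in under 2%.

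Within the rich wells levels spread widely. In tumor 1 *Mki67* had a lowest value of 8.69, a median of 54.1 and a highest value of 163 RPKM, and in tumor 2 these were 0.54, 89.2 and 209. *Cdk1* ran from 24.2 to 817 RPKM (median 210) and from 0 to 729 (median 123). *Ccnb1* ran from 0 to 342 RPKM (median 16.2) and from 0 to 710 (median 52.1). *Ube2c*, the ubiquitin-conjugating enzyme of the anaphase-promoting complex, had medians of 44.1 and 44.7 RPKM and highest wells at 2065 and 1811. The mean of *Cdk1* over member-poor wells was 7.48 and 6.93 RPKM, and that of *Mki67* 0.118 and 0.0874.

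The levels of the members varied together within the rich wells, but unevenly. Over 49 rich wells, the Spearman correlation of log2(RPKM + 1) between 2 members had a median of 0.33 over 1225 pairs (-0.32 to 0.86), and 1154 pairs lay above 0. In the wells that were not rich the median was 0.04, and over all 727 wells it was 0.52 (0.26 to 0.74). The wells were split by the number of members they held, a choice that can lower correlations within each side. The closest pair was *Cdk1* with *Top2a* (0.86), followed by *Kif2c* with *Cdc20* (0.77), *Cdk1* with *Prc1* (0.77) and *Pbk* with *Top2a* (0.76). The most opposed were *Aurkb* with *Hmmr* (-0.32) and *Pbk* with *Knstrn* (-0.30). These are descriptions over wells that share plates and differ in depth.

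A set of 11 members that peak late, in G2 and mitosis (*Plk1*, *Aurka*, *Cdc20*, *Ccnb1*, *Ccnb2*, *Cenpe*, *Cenpf*, *Hmmr*, *Tpx2*, *Ube2c* and *Kif20a*), had a median pairwise correlation of 0.48. A list of 57 S-phase genes that contains no member, such as the replicative helicase subunits (*Mcm2* to *Mcm7*), *Pcna* and *Rrm2*, served for comparison. Across the rich wells the mean level of the late members correlated with that of the S-phase list by -0.34, while with endogenous reads the late members correlated by -0.01 and the S-phase list by 0.27. The rich wells were chosen by the number of members, the late ones included, a choice that can lower this correlation, and over all 727 wells it was 0.30. *Hmmr* (-0.61), *Ccnb2* (-0.61), *Kif20a* (-0.53) and *Cks2* (-0.52) ran most against the S-phase level. *Pbk* (0.55), *Aurkb* (0.55), *Cdk1* (0.49) and *Top2a* (0.47) ran most with it.

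Of the 49 rich wells, 33 held 8 to 11 of the 11 late genes, 13 held 4 to 7 and 3 held at most 3. The median S-phase level, as mean log2(RPKM + 1) of the list, was 2.22 in the first set, 5.15 in the second and 5.09 in the third. The bands overlapped, since 4 of the 16 wells with at most 7 late genes lay at S-phase levels of 0.61 to 1.49, below the median of the first set. Those 2 bands also held fewer members, with medians of 32 and 27 against 45.

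**Figure D3:**
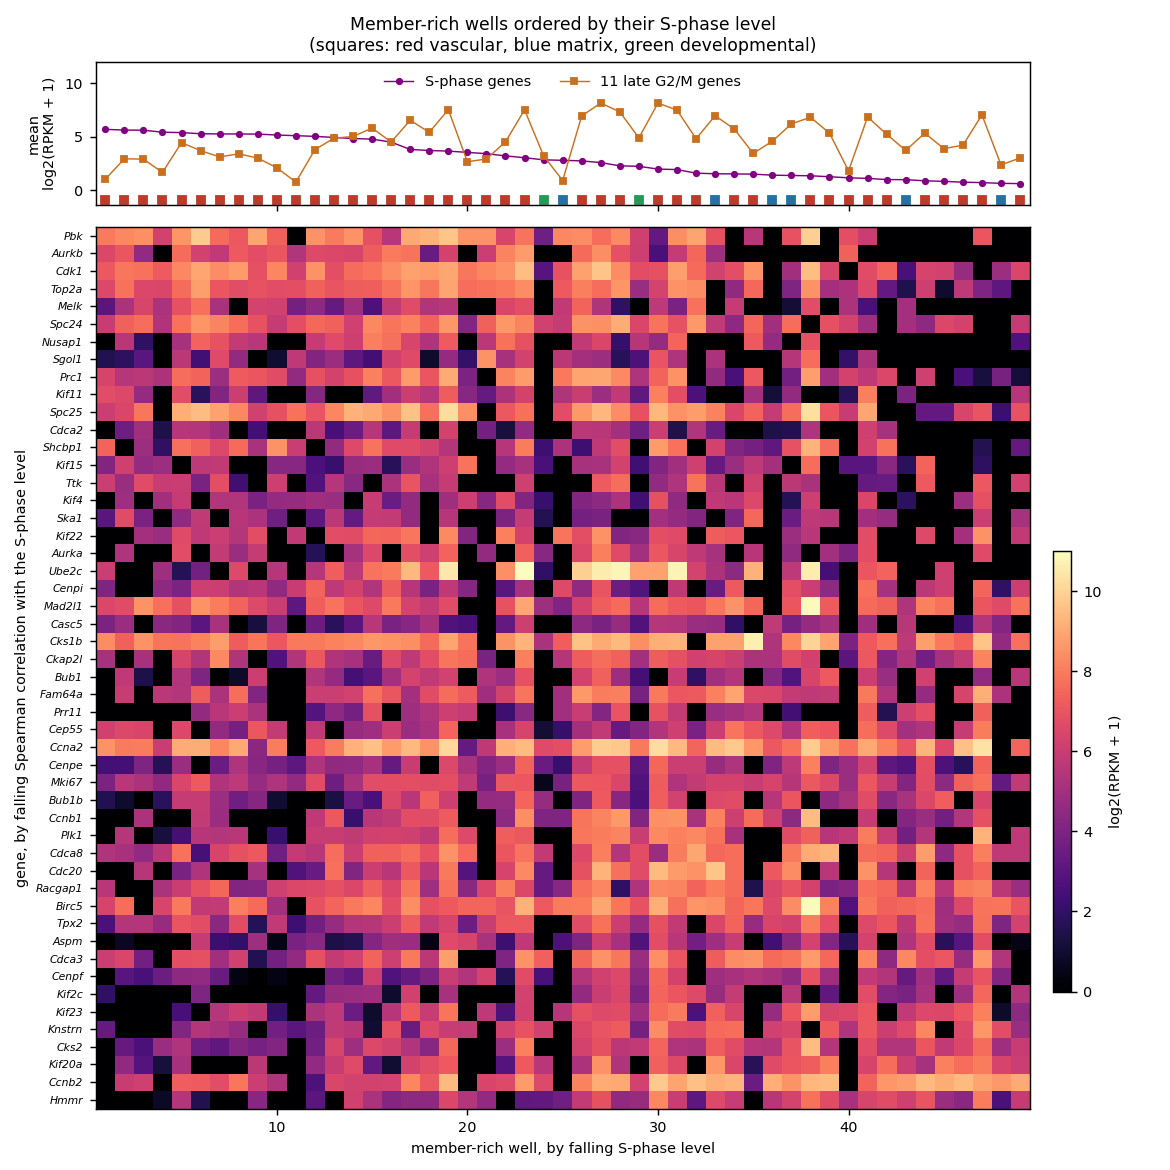
The 49 member-rich wells from the highest to the lowest S-phase level (x axis). The upper panel shows the mean log2(RPKM + 1) of the S-phase list and of the 11 late members, with squares for the marker class of each well. The heat map shows log2(RPKM + 1) of the 50 genes, ordered by their correlation with the S-phase level. Genes at the bottom, such as *Hmmr* and *Kif20a*, are at 0 in many wells on the left, and genes at the top, such as *Pbk* and *Aurkb*, in many wells on the right.

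S-phase genes were measured apart from the members, so their level is not fixed by how the wells were chosen. Member-rich wells held 8 to 53 of the 57 S-phase genes (median 32), intermediate wells 2 to 51 (median 10) and poor wells 0 to 26 (median 6.5). At least 20 were read in 18 of 26 rich wells in tumor 1 (69.2%) and 14 of 23 in tumor 2 (60.9%). Among poor wells this was so in 4 of 303 (1.32%) and 1 of 285 (0.351%). The mean level of the list was 3.27 and 2.68 in rich wells against 0.56 and 0.51 in poor wells, a difference of 2.44 ± 0.38 (SD, n = 2 tumors) on the log2(RPKM + 1) scale. Poor wells overlapped with the lower end of the rich ones, which began at 0.61.

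A further 30 wells held at least 20 S-phase genes without being member-rich, 25 of them intermediate. Their members were 3 to 19 in number. *Cdk1* had reads in 29 of the 30 wells, *Top2a* in 16 and *Ccnb1* in 3. By marker class, as defined next, 27 of them were vascular, 3 developmental and none matrix.

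Each well was given a class by its highest mean log2(RPKM + 1) over marker lists, with a lead of at least 1 over the next list. The vascular list has 10 genes of mural cells (*Rgs5*, *Rgs4*, *Kcnj8*, *Abcc9*, *Notch3* and others), the matrix list 10 genes of collagen-rich stroma (*Dcn*, *Lum*, *Pdgfra*, *Mfap5* and others) and the developmental list 6 (*Scrg1*, *Sox9*, *Sox10* and others). No marker is a member. The vascular CAF-like class held 504 wells, the matrix CAF-like class 170, the developmental CAF-like class 26, and 27 stayed undecided. The labels call all cells fibroblasts, but in member-poor vascular wells the median matrix level was 0.71 and 0.70, against a vascular level of 8.46 and 8.47.

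Most member-rich wells were vascular. They were 23 of 266 vascular wells in tumor 1 (8.65%, 5.56 to 12.7%) and 18 of 238 in tumor 2 (7.56%, 4.54 to 11.7%). Of the matrix wells 3 of 86 (3.49%, 0.73 to 9.86%) and 3 of 84 (3.57%, 0.74 to 10.1%) were rich. The difference between vascular and matrix wells was 5.16 percentage points in tumor 1 (-1.72 to 9.76) and 3.99 in tumor 2 (-2.97 to 8.69), and 4.57 ± 0.82 as mean ± SD (n = 2). The Newcombe interval of the difference included 0 within each tumor. After thinning, the differences were 6.00 and 3.76 points. With rich wells counted from 10 members they were 6.29 and 10.7, a mean of 8.50. Among poor wells the matrix ones were deeper, with medians of 240772 and 226954 reads against 186427 and 184534 in vascular ones. Among rich wells the medians were 327814 and 158360 in matrix and 279630 and 210405 in vascular ones, so the order differed between tumors.

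Rich wells of the developmental class were 2 of 18 in tumor 2 (11.1%, 1.38 to 34.7%) and 0 of 8 in tumor 1, where the limit of 3 counts is 37.5%. None of the 27 undecided wells was rich, for which the limit of 3 counts is 11.1%. No rich well lay near the class limit of a lead of 0.5 to 1.5, and the smallest lead was 1.61.

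**Figure D4:**
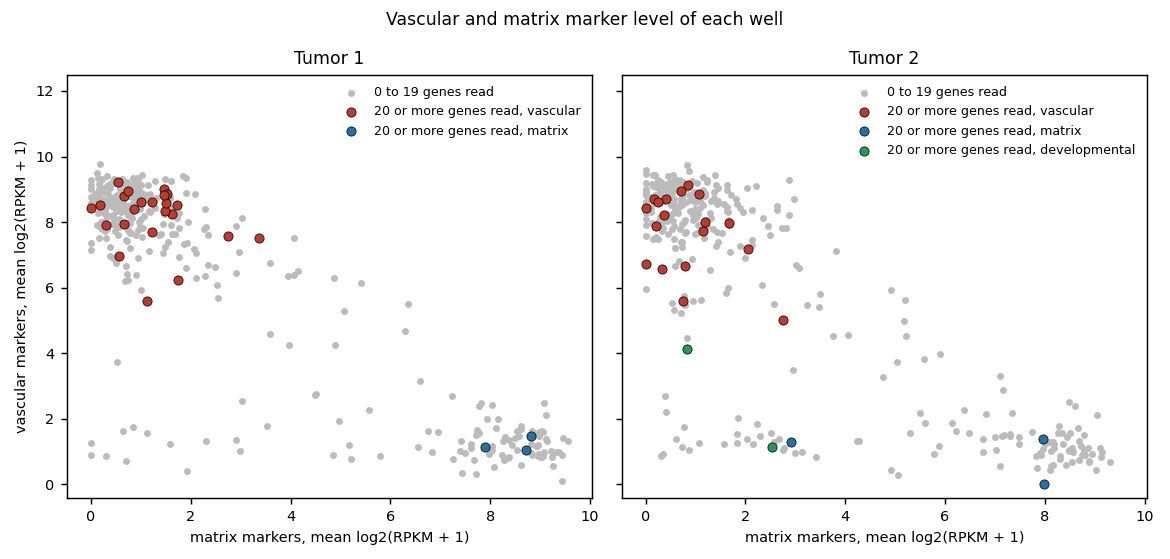
Mean log2(RPKM + 1) of the vascular markers (y axis) against the matrix markers (x axis) in each well, by tumor; wells with at least 20 of the 50 genes are coloured by class. Of the 49 rich wells 41 lie among the vascular wells, and 5 of the 6 blue points sit at a matrix level of 7.90 to 8.82.

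Gene by gene the same order held. In both tumors 48 of the 50 genes were read in a larger share of vascular than of matrix wells, a count that is not 48 independent comparisons because the genes share wells and the same reads set the share of rich wells. Of 17185 other genes with reads, 2388 had a larger share in vascular wells in both tumors (13.9%), and poor matrix wells held more genes than poor vascular wells. *Top2a* was read in 15.8% and 19.3% of vascular wells and 6.98% and 9.52% of matrix wells. *Cdk1* was read in 36.8% and 36.1% against 23.3% and 23.8%. The exceptions were *Kif20a*, whose order differed between tumors, and *Cks1b*, read in 25.9% and 28.99% of vascular but 40.7% and 45.2% of matrix wells.

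In 5 of the 6 rich matrix wells late members stood beside a low S-phase level. These wells had matrix levels of 7.90 to 8.82 and vascular levels of at most 1.47, with *Dcn* (decorin) at 1164 to 4198 RPKM and *Lum* (lumican) at 994 to 3187. *Rgs5* lay at 0 to 11.2 RPKM in them. Their S-phase level was 0.63 to 1.53, below the median of the rich vascular wells in tumor 1 (3.70) and tumor 2 (2.12). The classes overlapped, as 12 of the 41 rich vascular wells also lay at 0.61 to 1.53, with late levels of 1.80 to 7.03. The level of their late members was 2.35 to 6.95. *Birc5* was read in 6 of 6 matrix rich wells, with medians of 329 RPKM in tumor 1 and 179 in tumor 2, against 178 and 207 in rich vascular wells. *Hmmr* was also read in 6 of 6. *Top2a* had medians of 7.83 and 1.83 RPKM in matrix rich wells and 151 and 142 in vascular ones, and *Aurkb* had reads in 1 of 6 and 28 of 41. The remaining well was weakly of this class, with a matrix level of 2.91, *Dcn* at 5.57 RPKM, no *Lum*, 92809 reads and an S-phase level of 2.79.

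Wells with at least 20 S-phase genes showed this contrast without use of the members. They were 31 of 266 vascular wells in tumor 1 (11.7%, 8.06 to 16.1%) and 24 of 238 in tumor 2 (10.1%, 6.57 to 14.6%), but 1 of 86 (1.16%, 0.03 to 6.31%) and 1 of 84 (1.19%, 0.03 to 6.46%) matrix wells. The difference was 10.5 points in tumor 1 (4.38 to 15.0) and 8.89 in tumor 2 (2.74 to 13.5), or 9.69 ± 1.13 as mean ± SD (n = 2), and it was 10.3 after thinning. With a limit of 10 genes the order turned, to -14.9 points. Member-poor matrix wells had medians of 5490 and 5525 genes and vascular ones 3955 and 4016.5, and the part of this in the turn was not tested. Of the 2 such matrix wells 1 was the weakly matrix well above.

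Of the 2 rich developmental wells, 1 held markers of several cell types. With 8104 genes from 52060 reads and an ERCC share of 0.43%, it had *Epcam* at 1337 RPKM, *Krt18* at 1061, *Rgs5* at 249 and *Scrg1* at 140. The other had *Scrg1* at 358 RPKM and no *Epcam*. Whether the first held more than 1 cell was not tested.

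To see what else differed in cells with the program, reads of 41 rich and 402 poor vascular wells were summed per tumor, giving 4 libraries, and 11151 genes were compared with edgeR's quasi-likelihood test. Of the listed genes outside the members, 44 of 56 further G2/M genes and 33 of 51 S-phase genes that were tested were higher and none lower. At a Benjamini-Hochberg adjusted p of 0.05, 153 of 11101 genes outside the members were higher (1.38%) and 15 were lower (0.135%). A fit that blocks on tumor called 188 and 33, and DESeq2 called 564 and 377, so both numbers depended on the tool. Of the 153 genes, 85 stand on the 4 cell cycle lists used here and 68 on none. All 168 called genes had the same sign in both tumors. Genes whose tumors disagree have a wide spread and rarely pass this test, so that agreement is no separate support. The members chose the wells, so their own values are a description: their median log2 fold change was 8.52, beside -0.04 for all genes outside the members.

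**Figure D5:**
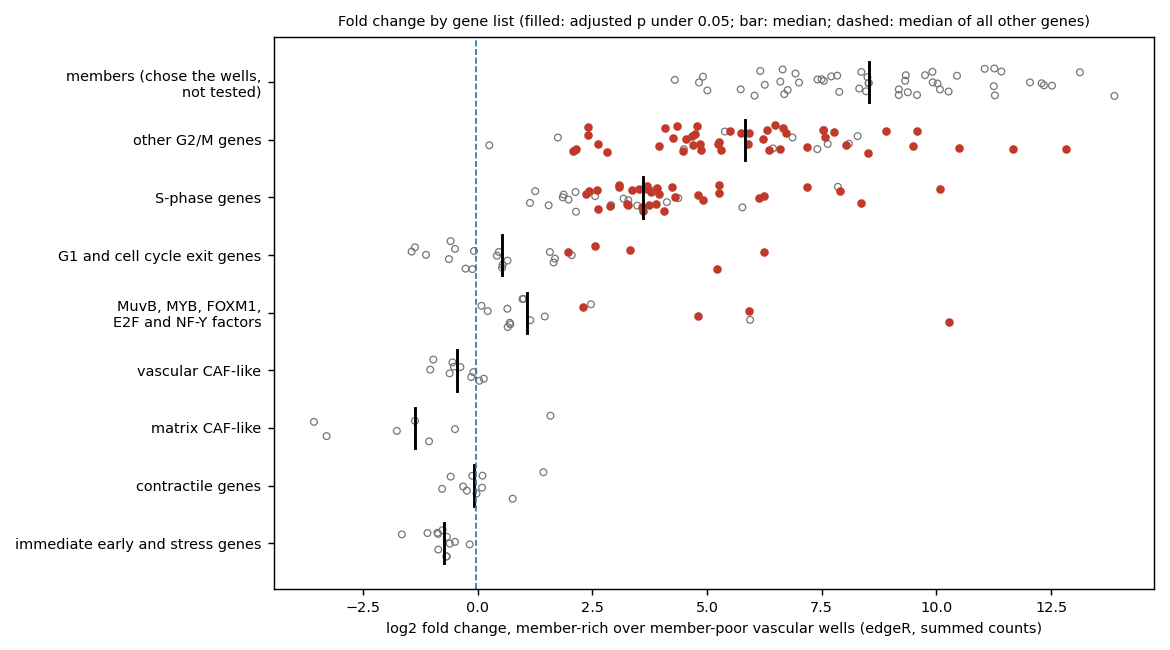
Fitted log2 fold change of summed counts in member-rich over member-poor vascular wells (x axis) for the genes of each list (y axis). Filled points passed an adjusted p of 0.05 (edgeR), black bars are list medians and the dashed line is the median of all other genes. The medians are 5.82 for other G2/M genes, 3.60 for S-phase genes and -0.08 for contractile genes.

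Of 64 further G2/M genes outside the members 56 were tested, and 44 were higher and none lower, with a median log2 fold change of 5.82. *Tacc3*, which stabilises spindle microtubules, stood at 343 and 455 CPM in the rich libraries of tumors 1 and 2 and at 3.74 and 5.19 in the poor ones, a log2 fold change of 6.48 (SE 0.34, adjusted p = 0.00379). *Foxm1* stood at 207 and 281 against 4.05 and 3.99 CPM (log2 fold change 5.92, SE 0.31, adjusted p = 0.00388). *Smc2*, a condensin subunit, rose by 4.69 (SE 0.28) and *Anln*, the actin scaffold of the cleavage furrow, by 7.52 (SE 0.47). The libraries of the 2 groups did not overlap for any of these genes. They were picked by smallest adjusted p in the same libraries, so this adds no support.

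Of 57 S-phase genes 51 were tested, with 33 higher, none lower and a median of 3.60. *Rrm1*, the large subunit of ribonucleotide reductase, stood at 618.0 and 655.9 CPM against 42.8 and 52.7 (log2 fold change 3.74, SE 0.22, adjusted p = 0.00483). *Tyms*, which makes thymidylate, rose by 4.22 (SE 0.26), *Rad51ap1*, of recombination repair, by 6.13 (SE 0.36) and *Asf1b*, a histone chaperone, by 7.91 (SE 0.52). The call of *Rad51ap1* was lost when poor wells were those with 0 members, and its adjusted p ran from 3.77e-50 to 0.268 over the alternatives.

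Of 23 genes of G1 and cell cycle exit 5 were higher, with a list median of 0.53. *Ccne2*, *Cdkn2c*, *Rbl1* and *E2f1* rose by 5.23, 1.96, 2.56 and 3.33 on the log2 scale, and *Ccne1*, which falls outside the naming rule and was added after its values were seen, by 6.23 (not computed under the alternatives). The E cyclins and E2F1 act in entry to S phase, whereas *Cdkn2c* codes for the CDK4/6 inhibitor p18 and *Rbl1* for the pocket protein p107. With poor wells at 0 members the calls of *Ccne2*, *Cdkn2c* and *E2f1* were lost, and over the alternatives their adjusted p ran from 6.32e-14 to 0.140, from 1.14e-08 to 0.208 and from 4.21e-10 to 0.0677. Of 16 subunits and partners of the MuvB, MYB, FOXM1, E2F and NF-Y factors 4 were higher. Besides *Foxm1* these were the repressive *E2f8* and *E2f7*, up by 10.3 and 4.79, and *Lin54*, the DNA-binding subunit of MuvB, at 104 and 113 against 23.1 and 21.3 CPM (log2 fold change 2.28, SE 0.28, adjusted p = 0.0267). The same choice of poor wells ended the calls of *E2f7* and *Lin54*, whose adjusted p ran from 9.34e-22 to 0.451 and from 2.02e-09 to 0.475. All 16 of these factors had a fold change above 0, as did 5311 of the 11101 genes outside the members, with a list median of 1.07, or 1.85 with ERCC totals.

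The largest rises among the called genes outside the members, with *Depdc1a*, *Cdc25c*, *Nuf2* and *E2f8* from the lists, were in genes that the poor libraries hardly held. The filter averaged RPKM over rich and poor wells together, so genes with almost no reads in the poor ones passed it only through the rich ones. Such genes could hardly come out lower. *Stil*, needed for centriole duplication, had 71.4 and 108 CPM in the rich libraries and no read in the poor ones, at least 2235-fold higher against a floor of 3 reads over both poor libraries. *Depdc1a*, *Sapcd2*, which acts in spindle orientation, and the non-coding RNA *Eldr* were likewise without reads there, with bounds of 1011-, 760- and 668-fold, and over the alternatives the adjusted p of *Sapcd2* ran from 2.51e-12 to 0.0588 and that of *Eldr* from 1.22e-10 to 0.158. *Esco2*, the acetyltransferase of cohesin, had 2 reads in the poor libraries (ratio 4076, counting interval 1128 to 33654), and *Cdc25c*, the phosphatase that activates CDK1, also 2 (ratio 3620, 1002 to 29888). The DNA glycosylase *Neil3* had 1 read (ratio 4003, 719 to 158122) and *Lrr1*, which helps unload the replisome, 3 (ratio 1441, 493 to 6986), with an adjusted p of 4.31e-14 to 0.0573 over the alternatives. *Nuf2* of the NDC80 complex and *E2f8* were the others of the 10 largest, at log2 fold changes of 10.5 and 10.3.

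The 5 largest falls are those of the edgeR fit, which called 15 lower genes against 377 by DESeq2. *Slfn5*, a member of the schlafen family, stood at 9.84 and 5.28 CPM in the rich libraries against 112 and 152 (log2 fold change -4.11, SE 0.44, adjusted p = 0.0193). *Ephx3*, an epoxide hydrolase, fell by 3.26, *Mmp11* (stromelysin-3) by 2.51, from 353 and 477 to 66.1 and 79.8 CPM, and *Mylip*, a ubiquitin ligase for the LDL receptor, by 2.33. With poor wells at 0 members the calls of *Ephx3* and *Mmp11* were lost, and their adjusted p ran from 7.85e-12 to 0.0767 and from 7.32e-17 to 0.106 over the alternatives. *Acss1*, mitochondrial acetyl-CoA synthetase, had 1 and 0 reads in the rich libraries against 19.8 and 22.2 CPM. Its call (adjusted p = 0.0499) was lost when tumor was a block (0.0652), and its adjusted p ran from 8.54e-05 to 0.860 over the alternatives.

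Genes of cell identity and contraction were not called in either direction in the reported fit. None of the 10 vascular markers passed, with a list median of -0.45 that turned to 0.33 with ERCC totals, where 2 were called higher, while DESeq2 called 3 lower. *Rgs5*, a regulator of G protein signalling typical of pericytes, stood at 8365 and 8560 CPM in rich against 13134 and 11159 CPM in poor libraries (log2 fold change -0.52, SE 0.14, adjusted p = 0.179). None of 10 contractile genes passed (median -0.08, or 0.71 with ERCC totals, where 1 was called). None of 12 immediate early and stress genes passed, and all 12 had a value below 0 (median -0.73), but with ERCC totals the median was 0.05, and DESeq2 called 4 lower. Of the matrix markers 7 were tested and none passed (median -1.37, or -0.60 with ERCC totals). With wells of all classes *Mfap5* and *Dcn* were called lower, and over the alternatives their adjusted p ran from 0.0141 to 0.314 and from 0.0379 to 0.975. Of epithelial, endothelial and immune markers 3, 2 and 1 were tested and none passed.

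RNA content moved with the program over all wells and in vascular wells, but not in the matrix wells of tumor 2. In matrix wells, with 3 rich ones per tumor, the median ERCC share of reads was 5.28% in rich and 6.72% in poor wells of tumor 1. In tumor 2 it was 6.87% and 6.23%. Over all classes, rich wells had a median of 11.1 endogenous reads per ERCC spike-in read and poor wells 6.49. The summed vascular libraries had 9.67 and 9.93 against 5.49 and 5.61. Scaled to ERCC totals, the median of all genes outside the members shifted from -0.04 to 0.74, with 1553 genes higher and 54 lower. All 153 higher genes stayed called and 8 of the 15 lower ones did, the other 7 keeping a value below 0. The part of RNA content in the changes was not tested further.

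Without using the classes, 11665 genes were ranked by the Pearson correlation of their log2(RPKM + 1) with the mean of the members over 727 wells. The nearest was *2810417H13Rik* (r = 0.87), the RefSeq gene *Pclaf*, whose product binds PCNA. It was read in 97.96% of rich wells. *Nuf2* (0.87), *Anln* (0.85), *Mxd3* (0.82), a MAX-binding transcription factor, *Ndc80* (0.81), *Kif20b* (0.77), *Ckap2* (0.76), *Sgol2* (0.76), *Tacc3* (0.76) and *Ect2* (0.75), the exchange factor of RhoA in cytokinesis, followed. These genes were picked on the wells that the members define, so their fold changes between rich and poor wells are no independent result.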

How the data were processed

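Smart-seq2 libraries of single sorted cells were analysed from tables of 768 wells. The deposited counts are raw reads per RefSeq gene after alignment by the authors with STAR (mm10), and 92 ERCC spike-ins are rows of their own. RPKM values, scaled by gene model length and mappable reads, come from the authors' run of rpkmforgenes. Every column was matched to a well by its name, and 0 columns were left unused. The members, gene lists, limits and marker classes were chosen with earlier results of these data known.

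Wells with at least 10000 endogenous reads were used and 41 were left out. A gene was read in a well from 1 count. Levels are log2(RPKM + 1), with a pseudocount of 1. Doublets had been gated out in the sort per the study's methods and none were called or removed here. The protocol does not mark strand, so overlapping and antisense genes cannot be told apart.

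Counts of vascular wells with at least 20 and at most 4 members were summed per tumor. The filter kept genes whose RPKM averaged 1 or more over those wells, and they were tested with edgeR 4.0.16 in R 4.3.3 (TMM, glmQLFit, glmQLFTest, Benjamini-Hochberg over all genes, adjusted p of 0.05, no covariate), after a check on simulated data. A gene read almost only in rich wells could pass this filter through them. With 2 libraries a group, p-values measure the spread between these libraries. The rich and poor libraries of a plate share a tumor, per the study's methods, so they are paired. Their deviations from the group means correlated by 0.081 over 11151 genes, and the block is an alternative. Other alternatives were DESeq2 1.42.0 and its size factors, ERCC totals, other filters, limits and classes, thinning to 50000 reads and each tumor left out.

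Genes named outside the members were the 10 largest rises and 5 largest falls past the adjusted p with the same sign in both tumors, up to 4 genes of each list by smallest adjusted p, and the 10 genes most like the members. Members matched RefSeq by symbol, 3 of them (*Casc5*, *Sgol1* and *Fam64a*) by synonym.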

Additional observations from a re-analysis of the deposited data

How the results depend on the processing

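The mean share of member-rich wells (6.73%) was 9.68% with a limit of 10 members, 7.44% with 15, 5.64% with 30, 6.32% when a member needed 5 reads and 6.38% over all 768 wells. It was 6.497 to 6.97% with either tumor left out. The vascular minus matrix difference in that share (4.57 points) was 8.500 with a limit of 10 members and 3.99 to 5.16 with either tumor left out. The difference in wells with 20 S-phase genes (9.69 points) reversed to -14.9 with a limit of 10 genes (the cause was not tested), was 7.91 with a limit of 30, and was 8.89 to 10.5 with either tumor left out. These S-phase limits were chosen after seeing the data. The S-phase level difference (2.44) was 3.83 with a pseudocount of 0.1, 2.97 on thinned, CPM-scaled counts and 2.17 to 2.71 with either tumor left out. The median share over the members (7.50%) was 5.57% from 5 reads and 6.47% after thinning.

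Genes higher and lower in rich vascular wells numbered 564 and 377 with DESeq2, 1553 and 54 with ERCC totals, and 258 and 57 without the filter on RPKM. In the paired fit with the tumor as a block they numbered 188 and 33, and the block lost the call of 1 named gene, *Acss1*. Lower genes were 27 with rich wells from 10 members, 9 with poor wells at 0 members, 50 after thinning and 39 over all classes. At an adjusted p of 0.001 the reported edgeR fit called 0 and 0, against 1734 genes at an unadjusted p under 0.05, while edgeR called 11 and 0 with the block, 43 and 0 without the filter and 17 and 0 after thinning, and DESeq2 called 302 and 82. The share of higher calls was 91.1% in the reported fit and 59.9% with DESeq2; the cause was not tested. For 34 called genes named here, 507 values were computed under alternatives, of which 26 lost the call, 14 of these with poor wells at 0 members, and none reversed. Of the named genes not called, 12 were called in an alternative: *Rgs4*, *Kcnj8* and *Egr1* lower with DESeq2 and after thinning, *Rgs5*, *Fosb*, *Ier2* and *Fos* lower with DESeq2, *Mfap5* and *Dcn* lower over all classes, *Actg2* higher with ERCC totals, and *Mxd3* and *Sgol2* higher in several. With 1 tumor left out there is no residual spread, so those fold changes carry no test. Depth limits single reads of rare members in poor wells.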

Other observations

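*Cks1b* and *Kif20a* were the members least tied to the others by class. Matrix wells held *Cks1b* in 42.9% and vascular wells in 27.4%, although *Cdk1*, whose complexes bind its product, was read in 23.5% and 36.5%. The 90 intermediate wells made up 12.4% of all wells, with 10.9% and 13.4% of vascular and 15.1% and 9.52% of matrix wells in tumors 1 and 2. The order of matrix and vascular wells in this share thus differed between the tumors.

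Among the 8 rich wells outside the vascular class, *Mki67* was read in all 8, from 0.54 to 81.8 RPKM. Within the rich wells, the mean difference of matrix from vascular wells on the log2(RPKM + 1) scale was below 0 in both tumors for 25 of the 50 genes and above 0 in both for 4 (*Kif23*, *Birc5*, *Casc5* and *Hmmr*), with 3 matrix wells per tumor and no test. The signs differed between the tumors for the other 21 genes, and the median difference over the members was -0.18 in tumor 1 and -2.08 in tumor 2. By the mean over both tumors the lowest genes were *Top2a* (-4.12 and -4.18) and *Aurkb* (-3.36 and -3.94).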
